A study of Mus musculus with 18 samples.

Results

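DNA methylation of single wild-type mouse oocytes was compared between 2 stages of growth, the secondary follicle (SF) and the early antral follicle (EAF), at the CpGs read in both. The comparison used 11 of the series' 18 oocytes, all labelled wild type, with 7 at SF and 4 at EAF. A CpG was compared where it lay on an autosome and had at least 5 reads in at least 2 oocytes of each stage. This left 24651 CpGs, which is 6.16% of the 399955 autosomal CpGs with at least 5 reads in any wild-type oocyte. The other 7 oocytes of the series are labelled as Sall4 knockouts and are not compared here.

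Oocytes came from female mice of 2 kinds, Sall4fl/fl;Zp3-Cre and Sall4fl/fl, taken at P12.5 and P17.5. In the former, Cre driven by the Zp3 promoter acts in growing oocytes. The labels do not say which of these females or which age gave any single oocyte, so age and follicle stage cannot be told apart. Each library is 1 oocyte and no animal is named, so a stage counts as 1 sample, no test was made, and an SD or range over oocytes describes oocytes and not animals. Methylation was read by reduced representation bisulfite sequencing, in which MspI cuts at CCGG and thereby enriches CpG-rich DNA, and bisulfite turns unmethylated cytosines into uracil. Marker genes of oocytes cannot be examined with these DNA data.

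The oocyte genome loses nearly all its methylation in the germ line before birth and regains it after birth, while the oocyte grows without dividing. DNMT3A with its cofactor DNMT3L lays the new methylation down, largely over transcribed regions, and most CpG islands escape it. A minority of islands become methylated, among them the maternal imprints that pass to the embryo. SF and EAF oocytes lie within this period, so the comparison shows how much of the pattern was in place at SF and what was added by EAF.

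Reads summed over autosomal CpGs ranged from 450939 to 3561755 in the SF oocytes and from 945587 to 1846769 in the EAF oocytes. An SF oocyte had 5202 to 19416 of the compared CpGs and an EAF oocyte 16451 to 20329. At the mitochondrial CpGs, 5.86% and 5.70% of reads were methylated in SF oocytes 2 and 4, at most 2.03% in the other SF oocytes and at most 0.374% in the EAF oocytes. The stage difference given next was 3.58 points without SF oocyte 2 and 3.85 points without SF oocyte 4.

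The compared CpGs were unevenly spread over the genome. The files list chromosomes 10 to 19 before chromosomes 1 to 9, and the chromosomes listed first held more of the compared CpGs. Of the CpGs with at least 5 reads in any oocyte, 17.3% were compared on chromosome 10, the first listed, against 2.77% on chromosome 9, the last. CpGs read in 9 to 11 of the 11 oocytes numbered 6632, and 91.2% of them were on chromosomes 10 to 19, which hold 45.3% of all CpGs with at least 5 reads. These widely read CpGs also had a different make-up of values. Of their single-oocyte values with at least 10 reads, 88.9% at SF and 92.4% at EAF lay strictly between 0% and 100%, against 28.4% and 28.8% at the 13067 CpGs read in 4 to 6 oocytes. Whether reads that match several places were assigned to the chromosomes listed first was not tested. Results are therefore also given for chromosomes 1 to 9 and for CpGs read in 4 to 6 oocytes.

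**Figure D1:**
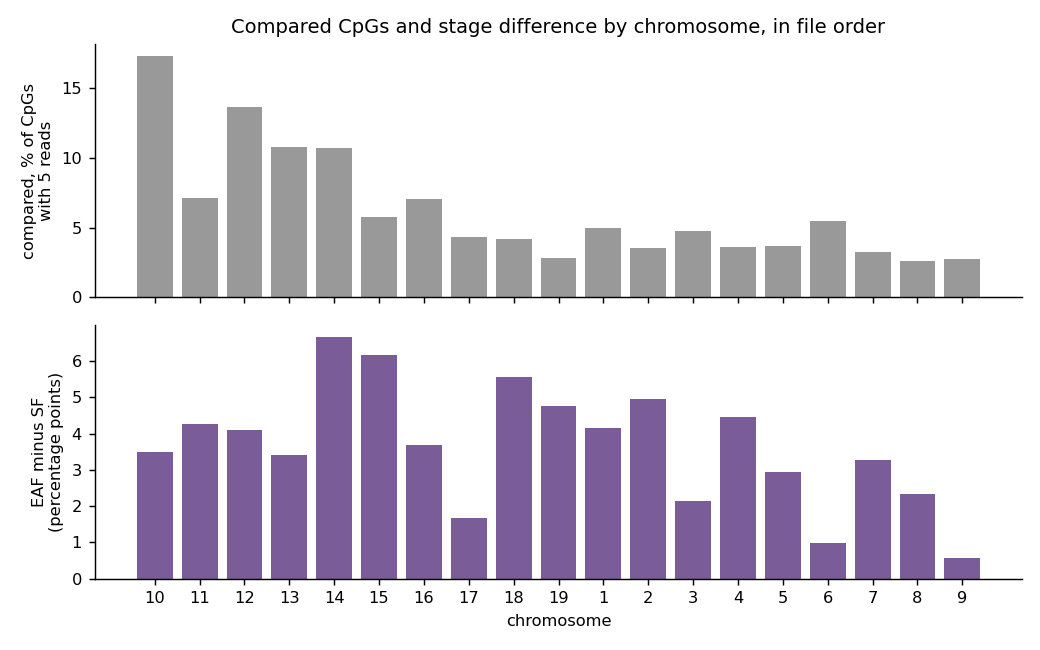
Share of CpGs with at least 5 reads in any wild-type oocyte that could be compared (upper bars, percent) and mean EAF minus SF methylation at the compared CpGs (lower bars, percentage points), for the 19 autosomes in the order of the files. The share fell from 17.3% on chromosome 10 to 2.77% on chromosome 9, and the difference was above 0 on each chromosome.

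At the compared CpGs, most methylation seen at EAF was already present at SF, and the net gain was small. Over the compared CpGs the mean methylation was 21.9% at SF and 25.7% at EAF, a difference of 3.82 percentage points, so the SF level was 85.1% of the EAF level. EAF was higher on 19 of 19 autosomes, by 0.565 points on chromosome 9 to 6.65 points on chromosome 14. The levels were 18.5% and 21.5% on chromosomes 1 to 9, a difference of 3.05 points. They were 17.9% and 21.5% at the CpGs read in 4 to 6 oocytes, and 27.2% and 31.2% at those read in 9 to 11.

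The SF oocytes differed more among themselves than the stages did. Over the compared CpGs that each one read, SF oocytes 1 to 7 had 25.2%, 22.9%, 11.03%, 18.4%, 22.1%, 25.1% and 30.3%, and EAF oocytes 1 to 4 had 28.5%, 28.4%, 28.2% and 24.5%. The means were 22.1% ± 6.10 (SD, n = 7 oocytes) and 27.4% ± 1.94 (SD, n = 4 oocytes). The ranges overlapped: SF oocyte 7 was above each EAF oocyte, and EAF oocyte 4 was below SF oocytes 1, 6 and 7. SF oocyte 3, the lowest, also had the fewest reads and compared CpGs. Since oocytes cover different CpGs, each of the 28 SF and EAF pairs was also compared at the CpGs both had read, from 3979 to 16581 a pair. The EAF oocyte was higher in 24 pairs and lower in 4, with a mean difference of 4.15 ± 3.73 points (SD over pairs that share oocytes) and a range of -4.65 to 11.3. EAF oocyte 4 took part in 3 of the 4 negative pairs and SF oocyte 7 in 2. Leaving out 1 oocyte at a time gave differences from 2.95 points, without SF oocyte 5, to 5.17 points, without EAF oocyte 4.

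**Figure D2:**
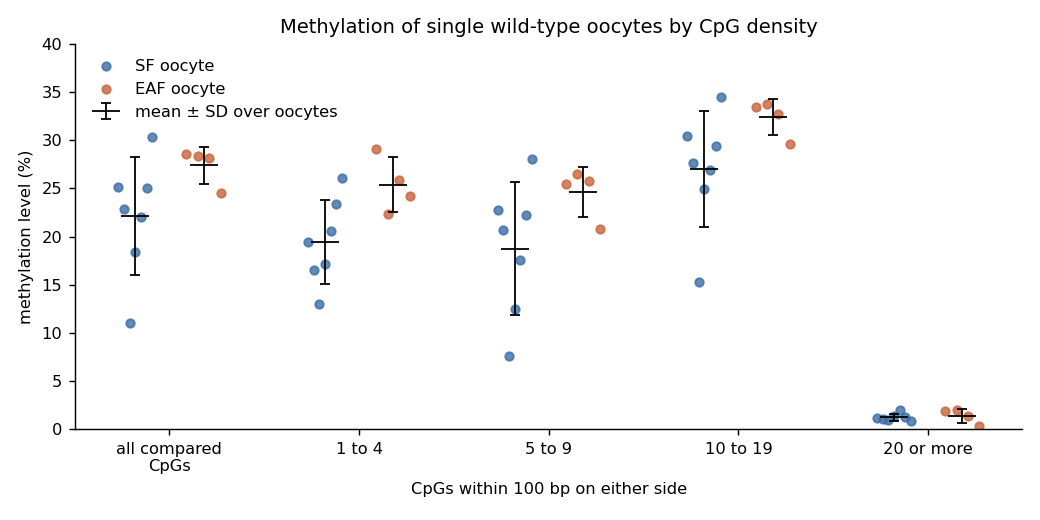
Mean methylation level (percent) of each SF oocyte (blue, 7 oocytes) and EAF oocyte (orange, 4 oocytes) over the compared CpGs it read, for all of them and by the number of CpGs within 100 bp on either side. Black bars are mean ± SD over oocytes. The stages overlap over all compared CpGs, and both lie at or below 2.01% in the densest class.

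Individual CpGs moved in both directions. EAF was higher at 11113 CpGs, lower at 6798 and exactly equal at 6740 (6744 within 1e-06 points), and 6485 of the exactly equal CpGs were unmethylated (at or below 20%) at both stages. A gain of at least 50 points was seen at 669 CpGs (2.71%) and a loss of that size at 231 (0.937%). At 25 points the counts were 2086 (8.46%) and 857 (3.48%). Of the 669 gains, 96.3% were at CpGs read in 4 to 6 oocytes, where a group mean may rest on 2 oocytes, and 3 were at CpGs read in 9 to 11. Requiring 3 oocytes of each stage left 46 gains and 11 losses among 12094 CpGs. EAF oocyte 3 weighed most on these counts: without it, 334 gains and 127 losses remained among 17678 CpGs. Without EAF oocyte 1 there were 436 gains, and without EAF oocyte 4 there were 429 gains and 130 losses.

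CpGs were next sorted by their SF level into unmethylated (at or below 20%), intermediate, and methylated (at or above 80%). Of 14712 CpGs unmethylated at SF, 83.1% were unmethylated at EAF, 15.8% were intermediate and 156 (1.06%) were methylated. Of 9104 intermediate CpGs, 75.5% stayed intermediate, 15.02% were unmethylated at EAF and 9.44% were methylated. Of 835 methylated CpGs, 69.8% were methylated at EAF, 27.4% were intermediate and 23 were unmethylated. In each SF state the largest share of CpGs kept that state at EAF.

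Where state and difference use the same SF values, chance errors of the SF level enter both, with opposite sign in the difference. The mean difference was 4.96 points at unmethylated, 3.31 at intermediate and -10.6 at methylated CpGs. To separate the state from the level, the state was taken from the odd-numbered SF oocytes and the SF level from the even-numbered ones, and the reverse, at 11323 CpGs read in at least 2 oocytes of each set. CpGs unmethylated in the odd-numbered oocytes went from 10.9% in the other SF oocytes to 13.03% at EAF, a gain of 2.09 points (1.58 in the reverse split). Intermediate CpGs went from 38.8% to 45.01%, a gain of 6.16 points (5.97 in reverse). Methylated CpGs went from 76.6% to 80.9%, a gain of 4.29 points (5.35 in reverse). At exactly these CpGs, with state and level from the same set of oocytes, the differences were 4.89 and 5.01 points for unmethylated, 2.86 and 3.70 for intermediate, and -6.95 and -7.78 for methylated CpGs. The sign for methylated CpGs thus turned with the oocytes that gave the SF level, the CpGs being the same. The choice of CpGs also moved it: over these 11323 CpGs, with state and level from all SF oocytes, it was -2.29 points. With the state read from other oocytes, over these 11323 CpGs, intermediate CpGs gained most and unmethylated ones least. On chromosomes 1 to 9 the differences by state from other oocytes were 0.547 and -0.198 points for unmethylated and 6.31 and 7.27 for intermediate CpGs. They were 6.15 and 8.90 points for methylated CpGs, at 40 and 56 CpGs. There unmethylated CpGs again changed least, but in the reverse split methylated CpGs gained more than intermediate ones.

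**Figure D3:**
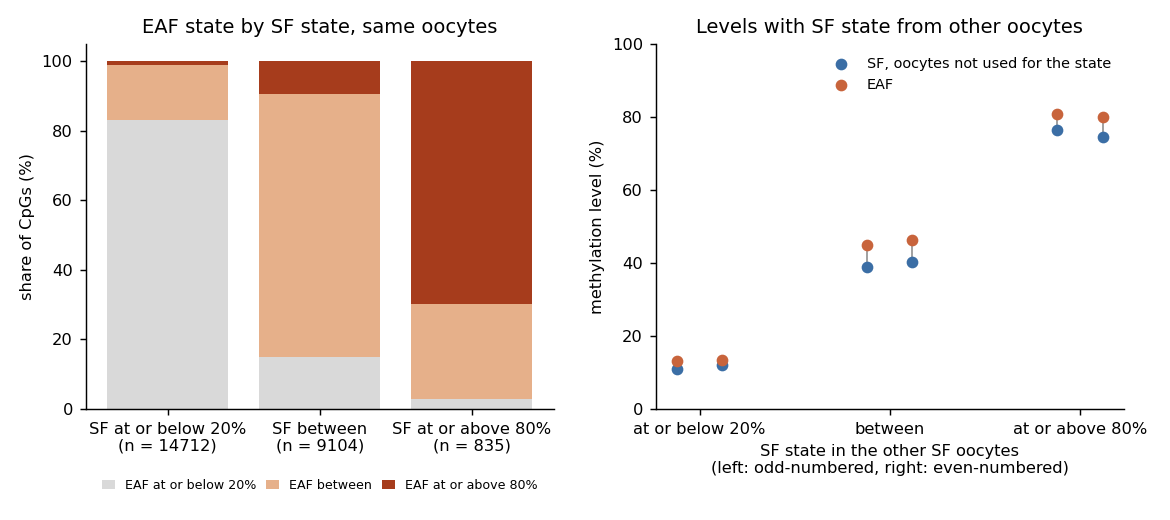
Left, share of CpGs (percent) in each EAF state for the 3 SF states, with the number of CpGs below each bar. Right, mean methylation (percent) at SF (blue) and EAF (orange) where the SF state came from one set of SF oocytes and the SF level from the other; EAF lies above SF in each of the 6 comparisons.

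The CpGs methylated at EAF show how far ahead SF was. There were 1598 of them, and 583 (36.5%) were already methylated at SF, 859 (53.8%) were intermediate and 156 (9.76%) were unmethylated. Their mean was 66.2% at SF and 93.0% at EAF. In single SF oocytes the level at these CpGs was 70.4%, 63.6%, 54.4%, 65.2%, 65.1%, 73.7% and 79.3% for oocytes 1 to 7, or 67.4% ± 7.99 (SD, n = 7 oocytes). These CpGs were chosen by their high EAF level, which raises that level by chance. Where they were chosen from the other EAF oocytes, the EAF oocyte left out had 84.2%, 78.6%, 82.5% and 72.6% for oocytes 1 to 4, against SF means of 73.6%, 71.8%, 72.0% and 68.5% at the same CpGs. EAF was then higher by a smaller step in each case. Between 34.1% and 36.1% of the CpGs chosen in this way were already methylated in the SF mean. The EAF oocyte left out was itself at or above 80% at 70.3%, 65.5%, 70.6% and 51.3% of those it read. Single SF oocytes were at or above 80% at 36.7% to 67.2% of the 1598 CpGs they read. With the CpGs chosen from all EAF oocytes, the share on chromosomes 1 to 9 was 34.3%.

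The CpGs that went from unmethylated to methylated were few and scattered. The 156 lay in 114 windows of 1 kb, with at most 4 in a window, and 98.1% were read in 4 to 6 oocytes. Chromosomes 1 to 9 held 58.3% of them, against 33.9% of all compared CpGs. Sparse sequence was over-represented: 31.4% had no more than 4 CpGs within 100 bp, themselves included, against 9.90% of all compared CpGs, and none had 20 or more. The 23 CpGs that went from methylated to unmethylated shared these traits: 43.5% had no more than 4 CpGs within 100 bp, 100% were read in 4 to 6 oocytes and 69.6% lay on chromosomes 1 to 9. Other compared CpGs within 100 bp of the 156 had a mean of 29.7% at SF and 78.3% at EAF. These neighbours can share reads and oocytes with the 156, and some may belong to them. Their values therefore do not show a change of the region apart from the choice of the 156. In single oocytes, 95.8% of their SF values were at or below 20% and 91.1% of their EAF values at or above 80%, as their choice requires.

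Intermediate CpGs could be a mixture of unmethylated and methylated oocytes or be partly methylated within an oocyte. At the CpGs intermediate at SF, 21.97% of single SF oocyte values were at or below 20%, 67.8% lay between and 10.2% were at or above 80%. Partly methylated values predominated, and more so at higher depth: they were 60.6% of values with 5 to 9 reads and 77.5% of values with 50 or more. The shares differed with the CpGs used. At CpGs read in 4 to 6 oocytes the 3 shares were 30.2%, 49.5% and 20.3%, and on chromosomes 1 to 9 they were 25.2%, 56.4% and 18.3%. Depth differed with the CpGs as well. The median was 9 reads at CpGs read in 4 to 6 oocytes. At those read in 9 to 11 it was 18 reads, and 77.4% of values lay between. Depth and the set of CpGs were not separated. The intermediate CpGs that became methylated by EAF had 15.5%, 50.05% and 34.5% in SF oocytes and 83.7% at or above 80% in EAF oocytes. The median SD between oocytes at the SF intermediate CpGs was 18.3 points over SF oocytes and 13.5 over EAF oocytes.

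CpG density was counted as the number of CpG positions listed in any of the 18 libraries within 100 bp on either side, the CpG itself included. Sparse and moderately dense CpGs gained, and the densest, those with at least 20, were nearly free of methylation at both stages. In the class of 1 to 4 CpGs (2441 compared) the mean went from 20.9% to 26.3%, a gain of 5.38 points. In the class of 5 to 9 (8663) it went from 20.7% to 24.2%, a gain of 3.53 points. In the class of 10 to 19 (11896) it went from 25.8% to 30.1%, a gain of 4.27 points. In the class of 20 or more (1651) it was 1.13% and 0.985%, a difference of -0.146 points. The class of 10 to 19 accounted for 53.9% of the net gain with 48.3% of the CpGs, and the class of 1 to 4 for 13.9% with 9.90%.

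Oocyte values followed the same classes. In the sparsest class SF oocytes 1 to 7 had 19.4%, 16.5%, 13.0%, 17.1%, 20.5%, 23.4% and 26.1%, and EAF oocytes 1 to 4 had 29.1%, 22.4%, 25.8% and 24.2%. SF oocytes 6 and 7 reached into the EAF range and the other 5 did not. In the class of 10 to 19 the means were 27.0% ± 6.01 (SD, n = 7 oocytes) and 32.4% ± 1.88 (SD, n = 4 oocytes), and SF oocyte 7, at 34.5%, was above the EAF range. In the densest class the values ran from 0.896% to 2.00% over SF oocytes and from 0.365% to 2.01% over EAF oocytes, so the ranges overlapped almost fully. The sign of the difference in that class was not stable: it was 0.396 points without EAF oocyte 4 and 0.161 points without SF oocyte 4.

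The order among the 3 lower classes depended on which CpGs were used. On chromosomes 1 to 9 the gains were 7.67, 2.26 and 3.70 points from the sparsest class up, and at CpGs read in 4 to 6 oocytes they were 6.80, 4.32 and 3.21 points. At CpGs read in 9 to 11 oocytes they were 2.18, 2.34 and 5.02 points, with the smallest gain in the sparsest class. Those widely read CpGs were also the more methylated ones in the class of 10 to 19, with 32.5% at SF against 19.1% at the CpGs read in 4 to 6 oocytes. A gain in each of the 3 classes, and a level of at most 1.13% in the densest class over all compared CpGs, on chromosomes 1 to 9 and at CpGs read in 4 to 6 oocytes, were common to these views. The 91 densest CpGs read in 9 to 11 oocytes differed, with 3.27% at SF and 6.28% at EAF.

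Counted 1 by 1, density showed a sharp upper limit. The mean stayed between 16.6% and 25.4% at SF up to 11 CpGs within 100 bp, rose to 35.2% at SF and 41.0% at EAF at 14, and fell to 19.0% and 21.9% at 16. At 17 it was 4.48% and 5.78%, and at 18 it was 1.48% and 1.24%. From 18 CpGs upward the mean did not exceed 3.67% at either stage. EAF was higher than SF at each count from 1 to 17. Large changes in both directions were most frequent in sparse sequence: a gain of at least 50 points was seen at 6.51%, 3.52%, 1.63% and 0.666% of CpGs from the sparsest to the densest class. Losses of that size ran the same way, at 1.60%, 1.30%, 0.614% and 0.363%. CpGs read in 9 to 11 oocytes, which have few such gains, were 4052 of the 11896 in the class of 10 to 19 and 357 of the 2441 in the sparsest class, and their part in this order was not tested. Of the CpGs methylated at EAF, 24.3% had been unmethylated at SF in the sparsest class, 12.2% in the class of 5 to 9 and 4.51% in the class of 10 to 19. No CpG in the densest class had an EAF mean of at least 80%.

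**Figure D4:**
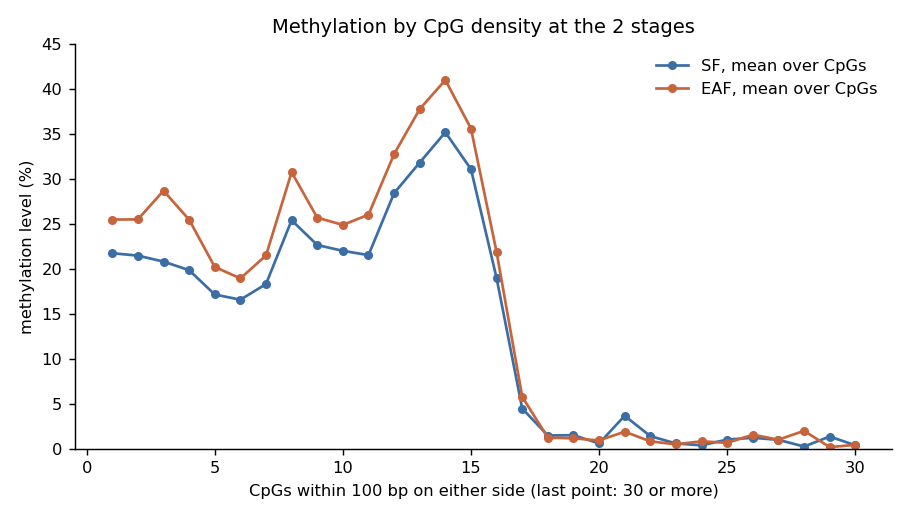
Mean methylation (percent) of the compared CpGs at SF (blue) and EAF (orange) by the number of CpGs within 100 bp on either side, the CpG itself included; the last point pools 30 or more. EAF lies above SF from 1 to 17 CpGs, both peak at 14, and both fall to 1.48% or less at 18. The curve was not split by the number of oocytes that read a CpG.

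The state of the surrounding CpGs at SF went with the gain of an unmethylated CpG. For each CpG unmethylated at SF, the mean SF level of the other compared CpGs within 100 bp was placed in the same 3 states. With unmethylated neighbours (12623 CpGs) the mean went from 4.25% to 7.40%, a gain of 3.16 points. With intermediate neighbours (1429) it went from 10.4% to 27.9%, a gain of 17.49 points. With methylated neighbours, of which only 13 cases were found, it went from 3.58% to 53.0%. With no other compared CpG in reach (647) it went from 9.60% to 21.1%, a gain of 11.5 points.

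The same order held among CpGs of like measured SF level and of like density. The measured level came from the same SF oocytes as the states, so it does not equate the CpGs in other SF oocytes. At an SF level of 0% to 5%, CpGs gained 3.75 points with unmethylated and 28.2 points with intermediate neighbours. At an SF level of 15% to 20% they changed by -0.860 and 11.9 points. In the class of 1 to 4 CpGs within 100 bp the gains were 9.09 and 20.9 points, in the class of 5 to 9 they were 4.25 and 15.4, and in the class of 10 to 19 they were 2.23 and 19.3. No unmethylated CpG of the densest class had intermediate or methylated neighbours. In the opposite direction, the 14 CpGs methylated at SF among unmethylated neighbours went from 93.9% to 56.3%. The 280 among methylated neighbours went from 96.4% to 90%. In both sets state and SF level came from the same oocytes. With state and level from different oocytes, methylated CpGs as a whole gained, and these 2 sets were not split in that way.

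The gains were smaller with state and level from different oocytes. With the states of the CpG and its neighbours from the odd-numbered SF oocytes and its SF level from the even-numbered ones, the gain was 0.962 points with unmethylated neighbours (9.25% to 10.2%, 4641 CpGs) and 8.37 points with intermediate neighbours (19.4% to 27.7%, 815 CpGs). In the reverse split the gains were 0.778 and 6.25 points. At the same CpGs, with state and level from the same set of oocytes, they were 2.895 and 3.38 points with unmethylated and 15.5 and 13.4 points with intermediate neighbours. CpGs with intermediate neighbours gained more in each case. They also had the higher SF level in the oocytes not used for the state. It was 19.4% against 9.25%, and 20.2% against 10.1% in the reverse split. The state of the neighbours and the CpG's own SF level were therefore not separated. On chromosomes 1 to 9 the 2 splits gave -0.384 and -0.508 points with unmethylated neighbours, and 9.34 and 3.78 points with intermediate ones, the latter at 115 and 89 CpGs. No CpG had methylated neighbours in this split, so the 13 cases have no such value.

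The gain fell with distance from a methylated CpG. CpGs unmethylated at SF went from 5.30% to 53.3% where a CpG methylated at SF lay up to 20 bp away (36 CpGs), from 3.40% to 39.2% at 20 to 50 bp (46), and from 7.11% to 38.9% at 50 to 100 bp (76), with the lower bound of each distance class excluded. They went from 10.7% to 21.2% at 100 to 200 bp (72), from 12.1% to 20.7% at 200 to 500 bp (124) and from 10.2% to 17.1% at 500 to 1000 bp (111). Beyond 1000 bp (14247) they went from 4.94% to 9.47%. With state and distance taken from the odd-numbered SF oocytes and the SF level from the even-numbered ones, at least 1 oocyte in each, the levels were 25.2% and 36.8% within 100 bp (523 CpGs), 18.0% and 23.5% at 100 to 1000 bp (487), and 8.65% and 10.7% beyond (11875). The gains were then 11.7, 5.53 and 2.08 points, and in the reverse split they were 12.2, 4.24 and 1.76 points. The order by distance held in both splits, which use 21783 CpGs. The SF level in the oocytes not used for the state also fell with distance, so distance and the CpG's own SF level were not separated. With at least 2 oocytes in each set, the gains within 100 bp were 8.60 and 8.99 points, at only 28 and 38 CpGs. They were 5.89 and 3.43 points at 100 to 1000 bp, and 1.99 and 1.49 points beyond.

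Close CpGs also changed together. Over pairs of compared CpGs the Pearson correlation of the EAF minus SF difference was 0.480 at up to 20 bp (23487 pairs), 0.423 at 20 to 50 bp and 0.369 at 50 to 100 bp. It was 0.190 at 100 to 200 bp, 0.196 at 200 to 500 bp, 0.150 at 500 to 1000 bp, 0.0202 at 1000 to 5000 bp and 0.0896 at 5000 to 20000 bp. Close CpGs share reads, oocytes and depth, so these values describe the data and have no p. The drop beyond 100 bp was also seen on chromosomes 1 to 9, from 0.330 at 50 to 100 bp to 0.253 at 100 to 200 bp, and at CpGs read in 4 to 6 oocytes, from 0.348 to 0.219. In these views the correlation did not keep falling, and at 5000 to 20000 bp it was 0.256 and 0.204. Where a CpG gained at least 50 points, 35.01% of the compared CpGs up to 20 bp away did too, 32.6% at 20 to 50 bp, 28.9% at 50 to 100 bp, 8.38% at 100 to 200 bp and 3.74% at 200 to 500 bp, against 2.71% of all compared CpGs. The share did not keep falling: it was 7.50% at 500 to 1000 bp, 12.2% at 1000 to 5000 bp and 17.1% at 5000 to 20000 bp. On chromosomes 1 to 9 it was 36.2% up to 20 bp, 0% at 500 to 1000 bp and 38.2% at 5000 to 20000 bp.

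**Figure D5:**
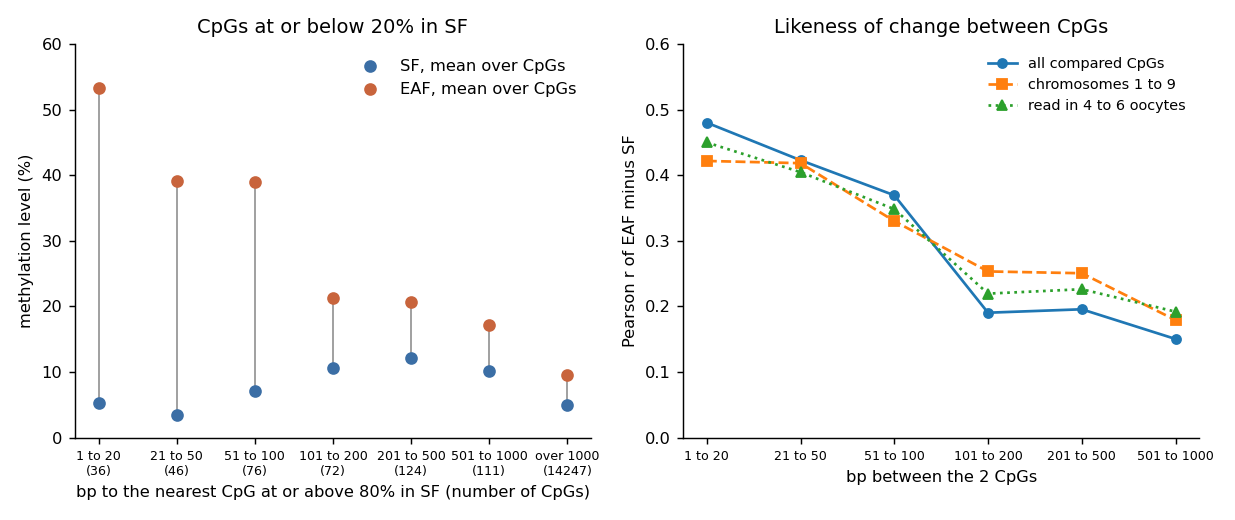
Left, mean methylation (percent) at SF (blue) and EAF (orange) of CpGs unmethylated at SF, by distance in bp to the nearest CpG methylated at SF, with the number of CpGs in parentheses and SF state and SF level from the same oocytes. Right, Pearson r of the EAF minus SF difference over pairs of compared CpGs by their distance in bp, for all compared CpGs, chromosomes 1 to 9 and CpGs read in 4 to 6 oocytes. The EAF level falls from 53.3% to 9.47% with distance on the left, and r falls from 0.480 to 0.150 for all compared CpGs on the right.

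Neighbouring CpGs shared their state within an oocyte more than between oocytes. At pairs of CpGs up to 20 bp apart whose SF means were between 20% and 80%, both values were at or above 80%, or both at or below 20%, in 12.4% of cases within an SF oocyte and in 3.99% between 2 SF oocytes. Opposite states made up 1.26% and 2.53%. At EAF the shares of equal states were 11.1% and 3.13%. At CpGs read in 4 to 6 oocytes they were 26.9% within and 9.07% between SF oocytes, and 27.1% and 7.25% for EAF oocytes. CpGs this close can lie on the same read, and PCR copies of 1 DNA molecule give them the same state.

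Windows of 1 kb gave the same size of change as single CpGs. There were 1208 windows in which at least 3 oocytes of each stage had at least 3 compared CpGs, and 76.4% of them lay on chromosomes 10 to 19. The mean over windows went from 24.2% to 27.7%, with EAF higher in 782, lower in 404 and exactly equal in 22. In 42 windows (3.48%) each EAF oocyte was above each SF oocyte, and in 11 (0.911%) each was below. With as few as 3 oocytes a stage, the order of the oocytes alone can separate them. How many windows this would give was not tested. In 259 windows (21.4%) each oocyte of both stages was at or below 20%, and in 4 each was at or above 80%. No window was at or below 20% in each SF oocyte and at or above 80% in each EAF oocyte. Windows are given below by their position on mm9 and carry no gene name, since no annotation of that build was used.

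The windows with the largest gains among those whose oocytes did not overlap had a mean of at most 32.6% at SF and at least 52.7% at EAF. The window chr18:90440001-90441000, with 9 compared CpGs, had 7.04%, 11.1% and 33.3% in SF oocytes 1, 5 and 6 and 66.7%, 86.8% and 33.5% in EAF oocytes 2, 3 and 4. EAF oocyte 4 was barely above SF oocyte 6, and the other EAF oocytes were well above. Its read sums gave 14.1% methylated of 510 reads at SF (95% exact binomial interval 11.2% to 17.4%) and 52.1% of 947 at EAF (48.8% to 55.3%). These intervals allow for counting error alone: copies made by PCR are not separate molecules, and a read counts at each CpG it spans.

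The window chr12:95158001-95159000, with 8 CpGs, had 37.8%, 2.08% and 17.3% in SF oocytes 2, 5 and 6 and 48.8%, 71.1% and 57.5% in EAF oocytes 2, 3 and 4. The window chr4:69076001-69077000, with 6 CpGs, had 50%, 16.7% and 16.7% in SF oocytes 2, 3 and 4 and 83.3%, 64.6% and 53.9% in EAF oocytes 1, 3 and 4. In both, 1 SF oocyte was close to the lowest EAF oocyte. The window chr14:74524001-74525000, with 8 CpGs, had 3.75%, 14.9%, 9.26% and 37.1% in SF oocytes 2, 5, 6 and 7 and 60.3%, 58.6%, 39.9% and 52.0% in EAF oocytes 1 to 4. Among the 5 windows it alone was read in all 4 EAF oocytes. The window chr11:92555001-92556000, with 8 CpGs, was read in 6 SF oocytes, at 14.6% to 50%, and had 83.3%, 70.4% and 51.7% in EAF oocytes 1, 3 and 4. Each of these 5 windows had a median of 5 to 11 CpGs within 100 bp.

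Windows that lost methylation in this way were fewer. The 5 with the largest losses had a mean of at least 30.3% at SF and at most 31.9% at EAF. The window chr18:41711001-41712000, with 6 CpGs, had 52.0%, 42.3% and 51.2% in SF oocytes 1, 2 and 5 and 0%, 0% and 3.70% in EAF oocytes 1, 3 and 4. Its read sums were 112 methylated of 230 reads at SF and 2 of 166 at EAF. The window chr5:13871001-13872000, with 3 CpGs, had 27.0%, 43.5% and 66.7% in SF oocytes 1, 2 and 3 and 0%, 9.88% and 0% in EAF oocytes 2, 3 and 4. The window chr14:114374001-114375000, with 6 CpGs, went from 71.6% to 31.9%, and chr9:23952001-23953000, with 4 CpGs, from 30.3% to 5.56%, each over 3 oocytes a stage. The window chr10:46692001-46693000, with 19 CpGs, had 17.3% to 62.9% in 6 SF oocytes and 11.6% to 16.3% in 4 EAF oocytes. Its oocytes read between 7 and 19 of its CpGs, and over all reads the difference was -3.87 points, against -19.8 points over oocyte means.

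Some windows were methylated in each oocyte of both stages that read them. The window chr7:14030001-14031000, with 6 CpGs, had 80%, 83.3% and 100% in SF oocytes 4, 5 and 7 and 100%, 84.1% and 100% in EAF oocytes 2, 3 and 4. The window chr19:5640001-5641000, with 5 CpGs, had 100%, 80% and 100% in SF oocytes 1, 4 and 7 and 100% in each of EAF oocytes 2, 3 and 4. The window chr4:44180001-44181000, with 3 CpGs, had 97.1%, 100% and 100% in SF oocytes 5, 6 and 7 and 95.5%, 96.4% and 97.2% in EAF oocytes 1, 2 and 3. In each the ranges of the stages overlapped.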

How the data were processed

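Single oocytes were profiled by reduced representation bisulfite sequencing, and BSMAP 2.89 and the mouse build mm9 are named in the submitters' processing notes. Per the file headers, the authors deposited for each CpG the count of reads and the count of methylated reads, with both strands added up. The deposited ratio, a fraction between 0 and 1, was checked to equal methylated over total reads within its rounding, and the counts were used here. Read filters and alignment settings were not given in the sources used here.

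A CpG's level in a stage was the mean of its oocytes' percentages, each with at least 5 reads, over at least 2 oocytes, and differences are EAF minus SF in percentage points. Every CpG had the same weight. Windows needed 3 compared CpGs in an oocyte and 3 oocytes of each stage. The windows named are the 5 with the largest gain and the 5 with the largest loss among those without overlap of oocytes, and the 3 with most compared CpGs among those at or above 80% in each oocyte. No window met the rule for unmethylated in each SF and methylated in each EAF oocyte. The CpGs, classes and windows were chosen with earlier results of these data known. CpG positions come from the libraries and not from the genome, so density is a lower bound. Python 3.11.15, numpy 2.4.6, pandas 2.3.3 and scipy 1.17.1 were used, and the computations were tested on simulated data. Oocytes of the same number were not treated as pairs: the correlations of their deviations were -0.00270, 0.0203, 0.0387 and 0.0118. Among 27 pairs of oocytes of the same stage, at most 2.50% of shared CpGs had identical counts, so no library was present more than once within a stage. Pairs across stages were not checked in this way. The depth of each library limits precision at single CpGs, with a median of 11 to 23 reads per compared CpG and oocyte.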

Additional observations from a re-analysis of the deposited data

Results flagged for a closer look

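In 22 groups of oocyte values, the gap between the highest or lowest oocyte and its nearest neighbour, over the whole range, was set against Dixon's 95% critical value. It was larger for 4 values, and chance flags about 1 in 20 groups. EAF oocyte 4 stood below the other EAF oocytes in its level over all compared CpGs (24.5%), and above them in its share of compared CpGs at or below 20% (59.0%). It was also the lowest at the CpGs unmethylated at SF (8.93%, against 11.8% to 12.2% in the other EAF oocytes). These 3 values describe 1 library and are not independent. SF oocyte 5 had the highest level among the SF oocytes at the densest CpGs (2.00%, against 0.896% to 1.34% in the others). What sets these oocytes apart was not tested.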

How the results depend on the processing

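Of 515 alternative values, 438 stayed within the spread between SF oocytes (or, for counts, within 1.5 times), 68 moved further and 9 changed sign. This spread is the SD of SF oocyte levels, which is 6.10 points over all compared CpGs and exceeds the difference of 3.82 points. A value could therefore stay and still change much. At intermediate CpGs the difference ran from 0.977 to 6.07 points, and in the sparsest class from 2.56 to 8.20 points, all within the spread. The named windows gave 175 of them, of which 169 stayed. Leaving out an oocyte that had not read a window could not change it. For the comparisons, 149 of 165 values stayed on leaving out 1 oocyte. Under the other settings 120 of 175 stayed, 49 moved further and 6 changed sign. The overall difference ranged from 2.95 to 5.17 points over the settings tried, and the replicate block, over the 4 pairs of same-numbered oocytes, gave 4.60 points. Differences in the densest class were 0.336, 0.103 and 0.407 points with at least 1, 3 and 10 reads, and 0.292 with 1 oocyte a stage. They were -0.380 to 0.396 leaving out 1 oocyte (0.161 without SF oocyte 4). With the bound of 20 CpGs kept, counting within 50 bp left 82 CpGs in the class, at -0.660 points. Counting within 250 bp placed 12293 CpGs in it, against 1651 within 100 bp, at 3.71 points. That larger class is not limited to the densest CpGs. At CpGs unmethylated at SF the differences were 8.15 with 1 read, 7.32 with 1 oocyte and 1.84 with state and level from different oocytes. At CpGs methylated at SF they were -16.8, -12.1 and -7.26 with 1, 3 and 10 reads, -22.0 and -3.13 with 1 and 3 oocytes, 4.82 with state from different oocytes, -14.0 on chromosomes 1 to 9, -13.4 at CpGs read in 4 to 6 oocytes, and -11.6 to -8.34 leaving out 1 oocyte. With unmethylated neighbours they were 5.23 with 1 read and 0.870 with state from different oocytes. With intermediate neighbours they were 23.9 with 1 read, 34.0 and 12.8 with 1 and 3 oocytes, 7.31 with state from different oocytes, 12.1 with neighbours beyond 100 and up to 500 bp, 22.6 on chromosomes 1 to 9 and 23.7 at CpGs read in 4 to 6 oocytes. With methylated neighbours, which rest on few CpGs, they were 43.3, 46.7 and 61.2 with 1, 3 and 10 reads, 65.7 and 2.38 with 1 and 3 oocytes, 53.1 thinned to 5 reads, 57.8, 52.3 and 16.8 with neighbours within 20 bp, within 50 bp and beyond 100 up to 500 bp, 82.6 on chromosomes 1 to 9, and 42.8 to 56.3 leaving out 1 oocyte. The share already methylated was 49.7% with a bound of 60%.

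The number of compared CpGs changes with the setting and is given beside the counts of gains and losses past 50 points. With 1 read they numbered 6516 and 2710 of 91630 CpGs, with 3 reads 1515 and 526 of 40248. With 10 reads they were 144 and 44 of 11005. With 1 oocyte they were 7706 and 3172 of 112737, and with 3 oocytes 46 and 11 of 12094. On chromosomes 1 to 9 they were 361 (4.31%) and 144 (1.72%) of 8369, against 2.71% and 0.937% of all compared CpGs. Past 25 points they were 2086 and 857 of 24651, and past 75 points 168 and 26. Leaving out 1 oocyte gave 334 to 664 gains and 127 to 237 losses, among 17678 to 24200 CpGs. The window chr4:44180001-44181000 changed to 8.19 points with at least 3 reads. The values with state from different oocytes also rest on fewer CpGs. At those CpGs, with state and level from the same oocytes, the differences were -2.29 points at CpGs methylated at SF and 11.9 points with intermediate neighbours. Other than changed thresholds, the cause was not tested. The restrictions to chromosomes 1 to 9, to CpGs read in 4 to 6 oocytes and to those of the odd and even split were chosen after seeing the data. Density from the genome sequence and classes by annotation were not run, since no mm9 reference was used. Depth limits single CpGs, where 5 reads allow steps of 20 points.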

Other observations

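The X chromosome was kept out of the comparison and gave a larger stage difference than the autosomes as a whole. By the same rule 816 X-linked CpGs could be compared, and their mean was 27.5% at SF and 35.6% at EAF, a difference of 8.08 points. The SF oocytes had 25.7% ± 5.52 (SD, n = 7 oocytes), from 19.6% to 33.3%, and the EAF oocytes had 35.3% ± 5.38 (SD, n = 4 oocytes), from 29.0% to 40.02%. The ranges overlapped, and whether the X differs from the autosomes was not tested.

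In single oocytes the share of values at exactly 0% or 100% depended on the CpGs read. At CpGs read in 4 to 6 oocytes and with at least 10 reads, 66.0% of SF values were 0% and 5.63% were 100%, and 62.3% and 8.87% of EAF values were. At CpGs read in 9 to 11 oocytes, 10.8% of SF values were 0% and 0.333% were 100%.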
